A study of Mus musculus with 13 samples.

Results

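Small RNAs of mature mouse sperm were searched for miRNAs that are usually read as markers of white and red blood cells, as a check on how much of such RNA the sperm libraries held. The members were the miRNA-type entries that the deposited sperm table names as miR-142 or miR-142a, miR-146a, miR-146b, miR-150, miR-155, miR-223, miR-144, miR-451 or miR-451a, miR-486 and miR-16, on either arm. These names found 12 entries among 69575 RNA sequence entries, of which 999 were of type miRNA and 384 of those carried a name. The leukocyte group held 8 entries (miR-142a-3p, miR-142a-5p, miR-142as, miR-142b, miR-146a-5p, miR-146b-5p, miR-146b-3p and mmu-miR-150) and the red cell group 4 (miR-16-5p, miR-16-1-3p, miR-16-2-3p and miR-486a-5p). No entry was named mmu-miR-155, mmu-miR-223, mmu-miR-144 or mmu-miR-451a.

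The sperm came from the cauda epididymis of Swiss mice and had been purified before RNA extraction. AAE sperm came from males injected intraperitoneally with acrylamide, a reactive chemical that also arises when starchy foods are baked or fried, at 25 mg/kg per day on 5 days, and were collected 3 days after the last injection, a timing the labels call epididymal exposure. Control sperm came from males given PBS, the vehicle, in the same way. There were 2 AAE and 2 control libraries. Neither the age of the males, the number of animals behind a library nor the method of purification is given in the sources used here, so p-values measure only the spread between these libraries, which may be technical.

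A miRNA is cut from a hairpin precursor, whose 5p and 3p arms can each be loaded onto an Argonaute protein and guide it to mRNAs that pair with its seed, the bases near the 5′ end. Mature sperm transcribe little, and much of their small RNA is made in the testis or taken up from the epididymal epithelium. Several miRNAs are made mainly by blood cells: miR-142 across the haematopoietic lineages, miR-150 in mature lymphocytes, miR-155 in activated lymphocytes and macrophages, and miR-223 in neutrophils and other myeloid cells. miR-144 and miR-451a are cut from 1 erythroid transcript, and miR-451a, which Dicer does not process, is among the most abundant miRNAs of red cells. Other members are less specific: miR-146a, which shares its seed with miR-146b, is induced by NF-κB in immune and epithelial cells. miR-486 is also a muscle miRNA, and miR-16 is made in most tissues.

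RefSeq (GRCm38.p6) held the mature sequences of 9 of the 12 entries. miR-142as, mmu-miR-150 and miR-486a-5p were not matched and are named only. The miR-146 pair comes first, because it carried most of the leukocyte counts and its 2 members are nearly the same molecule. Capitals mark the seed, bases 2 to 8.
mmu-miR-146b-5p: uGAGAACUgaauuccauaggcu
mmu-miR-146a-5p: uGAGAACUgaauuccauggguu
The 2 share the seed GAGAACU and 20 of 22 bases. Counted from 1 at the 5′ end, with the base of miR-146a-5p first, they differ by G18A and U21C. How reads too short or too trimmed to tell them apart were counted is not given in the sources used here. miR-146b-5p lies at chr19:46342790-46342811 on the plus strand and miR-146a-5p at chr11:43374435-43374456 on the minus strand.

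The miR-142 sequences follow, because 1 hairpin locus gives several of the measured entries.
mmu-miR-142a-3p: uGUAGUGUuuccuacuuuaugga
mmu-miR-142a-5p: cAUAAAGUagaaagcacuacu
mmu-miR-142b: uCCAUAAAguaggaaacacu
The 2 arms of miR-142a lie at chr11:87756903-87756925 (3p) and chr11:87756867-87756887 (5p) on the plus strand. miR-142b lies at chr11:87756906-87756925 on the minus strand, and all 20 of its bases pair with miR-142a-3p as its reverse complement. The sources used here do not say whether counting used the strand. Without strand, reads that lie within the 20 shared bases cannot be assigned to either entry.

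miR-16 is shown with relatives that share its seed, AGCAGCA, since they were measured in the same libraries.
mmu-miR-16-5p: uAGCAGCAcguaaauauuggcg
mmu-miR-15a-5p: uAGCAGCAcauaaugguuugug
mmu-miR-15b-5p: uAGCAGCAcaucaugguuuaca
mmu-miR-195a-5p: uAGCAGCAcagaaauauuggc
miR-16-5p is cut from 2 hairpins, at chr3:69009918-69009939 on the plus strand and at chr14:61631936-61631957 on the minus strand, so its counts cannot be assigned to either. The opposite arms differ between the hairpins, with the seed CAGUAUU in miR-16-1-3p (chromosome 14) and CCAAUAU in miR-16-2-3p (chromosome 3).

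The libraries held 15356820 and 12810223 counts in AAE sperm, against 14571528 and 13445938 in control sperm. miRNA entries took 5.35% and 7.53% of the counts in AAE sperm, against 4.23% and 3.34% in control sperm, so miRNAs as a class made up more of both AAE libraries. For that reason values are given on 2 scales: scaled over all entries (CPM, counts scaled to library size, with TMM factors, which were 0.722 and 1.65 in AAE and 0.930 and 0.903 in control sperm), and as shares of the miRNA counts. The type miRNA, as deposited, also held entries named as other RNAs, such as a C/D box small nucleolar RNA (mean count 5396) and a nuclear tRNA (mean count 2698). These stayed in the miRNA counts and among the tested miRNA entries. Germ cell miRNAs, the check on the label of the tissue, took 37.3% and 36.2% of the miRNA counts in AAE sperm, against 48.0% and 35.0% in control sperm.

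The miRNAs most closely tied to leukocytes and red cells were at low counts or had no named entry. mmu-miR-150 had 6 and 14 counts in AAE sperm, against 6 and 3 in control sperm. The exact 95% Poisson intervals, which cover counting error only, ran from 2.2 to 13.1 and from 7.65 to 23.5 in AAE sperm, against 2.2 to 13.1 and 0.619 to 8.77 in control sperm, so the groups were not distinguishable at this depth. It did not pass the filter on low counts and was not tested. Of the 999 miRNA entries, 615 carried no name in the deposited table. None of these 615 summed to more than 37 counts over the 4 libraries or reached more than 16 in any of them, and their median sum was 3. These limits do not cover named entries whose names have another form, such as miRNA379 (mean count 5416) and miRNA206 (mean count 1145). What those entries contain is not given in the sources used here. Whether mmu-miR-155, mmu-miR-223, mmu-miR-144 or mmu-miR-451a was among them or among the unnamed entries was not analysed here.

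miR-142a, the pan-leukocyte marker, was detected in every library at 17 to 45 counts per arm. miR-142a-3p had 43 and 45 counts in AAE sperm, against 44 and 17 in control sperm, or 3.90 and 2.16 CPM against 3.27 and 1.41 CPM. The groups overlapped, and the lowest value was that of control replicate 2. The log2 fold change, AAE over control, was 0.30 (SE 0.414; adjusted p = 0.961 by edgeR's quasi-likelihood test with Benjamini-Hochberg adjustment over all entries). Leaving out each library in turn gave values from -0.21 to 1.02.

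The other arm, miR-142a-5p, had 31 and 36 counts in AAE sperm, against 28 and 21 in control sperm, with a log2 fold change of 0.19 (SE 0.327). Its groups overlapped in CPM, and as a share of miRNA counts both AAE values were below both controls. The 5p arm made up 41.9% and 44.4% of the counts of both arms in AAE sperm, against 38.9% and 55.3% in control sperm. Exact 95% binomial intervals ran from 30.5% to 53.9% and from 33.4% to 55.9% in AAE sperm, against 27.6% to 51.1% and 38.3% to 71.4% in control sperm, and all 4 overlapped. Both arms were recovered at similar counts in each library.

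miR-142as, an entry named for the same locus, had 21 and 21 counts in AAE sperm, against 25 and 8 in control sperm (log2 fold change 0.09, SE 0.502). miR-142b, the antisense miRNA, had a mean of 8.75 counts over the 4 libraries, with 8 and 14 in AAE sperm against 11 and 2 in control sperm (log2 fold change 0.45, SE 0.701). In both entries control replicate 2 was lowest and the groups overlapped in raw counts. miR-142as held 0.488 and 0.467 times the counts of miR-142a-3p in AAE sperm, against 0.568 and 0.471 times in control sperm, and its sequence is not given in the sources used here. Whether it shares reads with the other miR-142 entries was not tested, so sums over them may count a read more than once. Summed over the 4 miR-142 entries, there were 103 and 116 counts in AAE sperm, against 108 and 48 in control sperm. As a share of miRNA counts that was 0.0125% and 0.0120% in AAE sperm, against 0.0175% and 0.0107% in control sperm, with both AAE values between the control values. Fewer cells of a type and less RNA per cell cannot be told apart in such bulk libraries, and that holds for every member.

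miR-146 held most of the leukocyte counts. miR-146b-5p, a feedback inhibitor of NF-κB signalling in immune cells, had 2135 and 1874 counts in AAE sperm, against 972 and 888 in control sperm. On the scale over all entries this was 194 and 90.1 CPM in AAE sperm, against 72.2 and 73.7 CPM in control sperm. Both AAE values were above both control values, but on this scale the AAE libraries were further apart (SD 73.4 CPM, n = 2) than the controls (SD 1.04 CPM, n = 2). That AAE spread depended on the TMM factors, 0.722 and 1.65 in AAE sperm. Scaled to library totals alone, the AAE libraries lay close together, with replicate 2 slightly above replicate 1, and both stayed above both controls. The log2 fold change was 0.96 (SE 0.492), with an adjusted p of 0.945 by edgeR. Without AAE replicate 1 it was 0.22, also with TMM factors. With library totals only and all 4 libraries, the log2 fold change was 1.11, a setting that shifted the median of all entries to 0.36. As a share of miRNA counts, miR-146b-5p took 0.260% and 0.194% in AAE sperm, against 0.158% and 0.198% in control sperm, and there the groups overlapped.

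miR-146a-5p, which targets the same adaptor proteins of Toll-like receptor signalling through the shared seed, had 480 and 736 counts in AAE sperm, against 329 and 209 in control sperm. In CPM this was 43.6 and 35.4 in AAE sperm, against 24.4 and 17.3 in control sperm, with no overlap. It averaged 39.5 ± 5.80 CPM in AAE sperm and 20.9 ± 5.02 CPM in control sperm (SD, n = 2 each). The log2 fold change was 0.92 (SE 0.343). Its unadjusted p was 0.0251 and its adjusted p 0.945 by edgeR, and DESeq2 also gave an unadjusted p under 0.05. It was the 1 tested member with both AAE libraries above both controls on both scales, as its share of miRNA counts was 0.0584% and 0.0763% in AAE sperm, against 0.0533% and 0.0465% in control sperm. Leaving out each library in turn gave log2 fold changes from 0.66 to 1.16.

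The passenger arm miR-146b-3p had 18 and 16 counts in AAE sperm, against 15 and 13 in control sperm, with a log2 fold change of 0.01 (SE 0.453), and its groups overlapped in CPM. Of the counts of both arms, miR-146b-5p made up 99.2% and 99.2% in AAE sperm, against 98.5% and 98.6% in control sperm. miR-146b thus differed from miR-142a in arm use in all 4 libraries, with the 5p arm close to the whole. The ratio of miR-146b-5p to miR-146a-5p was 4.45 and 2.55 in AAE sperm, against 2.95 and 4.25 in control sperm, and the groups overlapped.

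**Figure D1:**
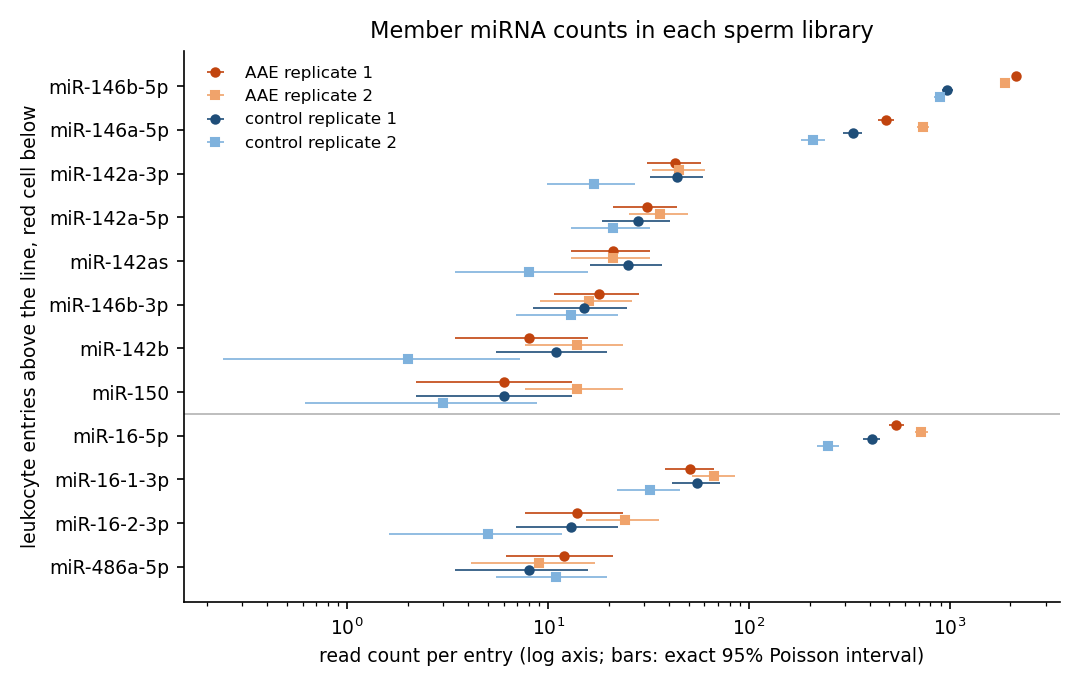
Counts of each member entry in the 4 sperm libraries, on a log axis, with AAE points above control points and bars for the exact 95% Poisson interval. The miR-146b-5p points lie highest, between 888 and 2135 counts, while the miR-142 entries and miR-486a-5p lie below 50.

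Of the red cell group, miR-16-5p had the highest counts, from 248 to 719. miR-16-5p, a repressor of cyclin and BCL2 mRNAs in many tissues, had 541 and 719 counts in AAE sperm, against 408 and 248 in control sperm. It averaged 41.8 ± 10.3 CPM in AAE sperm and 25.5 ± 6.89 CPM in control sperm (SD, n = 2 each), with no overlap. The log2 fold change was 0.71 (SE 0.368), with an adjusted p of 0.945 by edgeR, and was 0.36 without AAE replicate 1 and 0.43 without control replicate 2. Within the miRNA counts it took 0.0659% and 0.0745% in AAE sperm, against 0.0661% and 0.0552% in control sperm, which overlapped.

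The opposite arms separate the 2 hairpins of miR-16. miR-16-1-3p had 51 and 67 counts in AAE sperm, against 55 and 32 in control sperm (log2 fold change 0.18, SE 0.292). miR-16-2-3p had 14 and 24 counts in AAE sperm, against 13 and 5 in control sperm (log2 fold change 0.76, SE 0.458). The groups overlapped in CPM for miR-16-1-3p and did not for miR-16-2-3p. The difference between the 2 fold changes was not tested, and the miR-16-2-3p value was 0.26 without control replicate 2 and 1.48 without control replicate 1. The ratio of miR-16-1-3p to miR-16-2-3p was 3.64 and 2.79 in AAE sperm, against 4.23 and 6.40 in control sperm, lower in both AAE libraries but resting on as few as 5 counts of miR-16-2-3p.

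miR-486a-5p, which lies in the ankyrin-1 gene and is abundant in red cells and muscle, had 12 and 9 counts in AAE sperm, against 8 and 11 in control sperm. The exact 95% Poisson intervals were 6.20 to 21.0 and 4.12 to 17.1 in AAE sperm, against 3.45 to 15.8 and 5.49 to 19.7 in control sperm. All 4 overlapped. Its log2 fold change of -0.12 (SE 0.594; adjusted p = 0.987 by edgeR) was the one below 0 among the tested members, and it ranged from -0.86 to 0.55 as each library was left out. miR-16-5p had 45.1 and 79.9 times the counts of miR-486a-5p in AAE sperm, against 51.0 and 22.5 times in control sperm.

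Over all members, 11 of 12 were tested, 10 had a log2 fold change above 0, and none passed an adjusted p of 0.05 in edgeR or in DESeq2. The same test called 0.0% of all 21008 tested entries, with 1012 at an unadjusted p under 0.05 (121 in DESeq2). At an unadjusted p under 0.05, 1 of the 11 members was higher in AAE sperm, against 2.59% of all entries and 10.4% of the 375 tested miRNA entries. In 4 of the 11 (miR-146b-5p, miR-146a-5p, miR-16-5p and miR-16-2-3p) both AAE libraries exceeded both controls in CPM, against 16.8% of all entries and 32.5% of the tested miRNA entries. As shares of miRNA counts, 1 of the 11 did so, against 10.4% of the 375, and 3 (miR-142a-5p, miR-146b-3p and miR-16-1-3p) were lower in both AAE libraries, against 25.6% of the 375.

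Most miRNAs shared the direction of the members. Their median log2 fold change was 0.30 over the 11 tested members, against 0.39 over all 375 tested miRNA entries, of which 321 were above 0, and -0.00088 over all entries. The leukocyte entries had a median of 0.30 (7 tested) and the red cell entries 0.45 (4 tested). With miRNAs scaled to each other, which shifted the median of all entries to -0.20, the medians were 0.12 for the members and 0.16 for all miRNAs. On that scale 6 of the 11 members were above 0. miR-142a-5p, miR-142as, miR-146b-3p and miR-16-1-3p turned below 0, at -0.02, -0.06, -0.19 and -0.02.

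**Figure D2:**
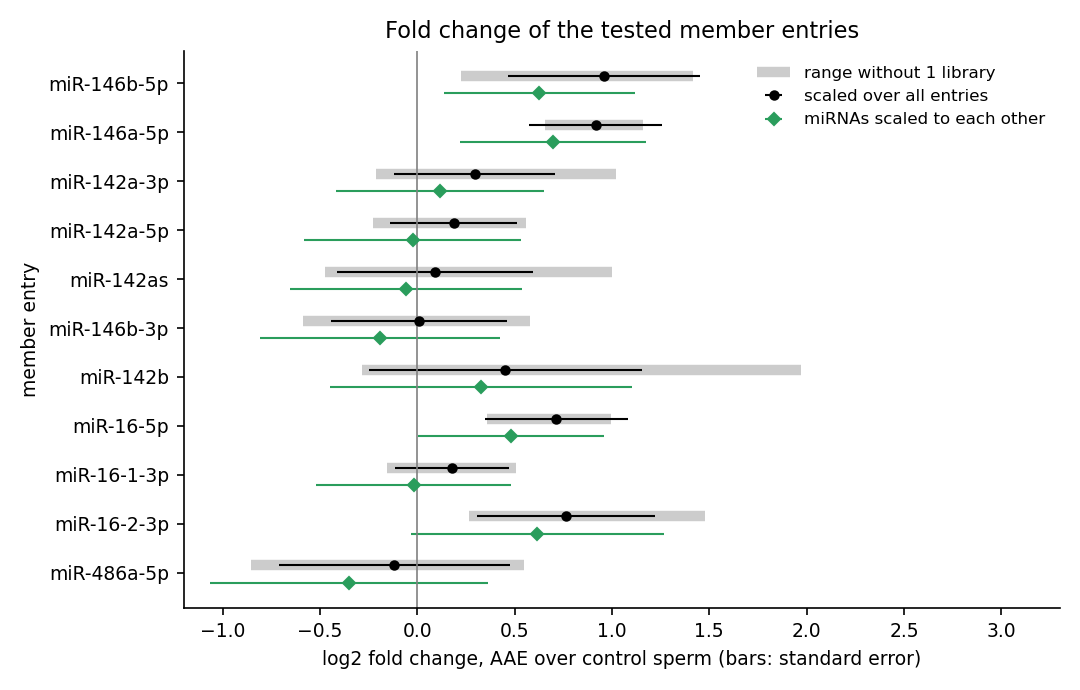
Log2 fold change of the 11 tested members, AAE over control sperm, with bars for the standard error, on the scale over all entries (black) and with miRNAs scaled to each other (green). Grey bands give the range when each library was left out in turn, and those of miR-146b-5p, miR-146a-5p, miR-16-5p and miR-16-2-3p stay above 0.

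**Figure D3:**
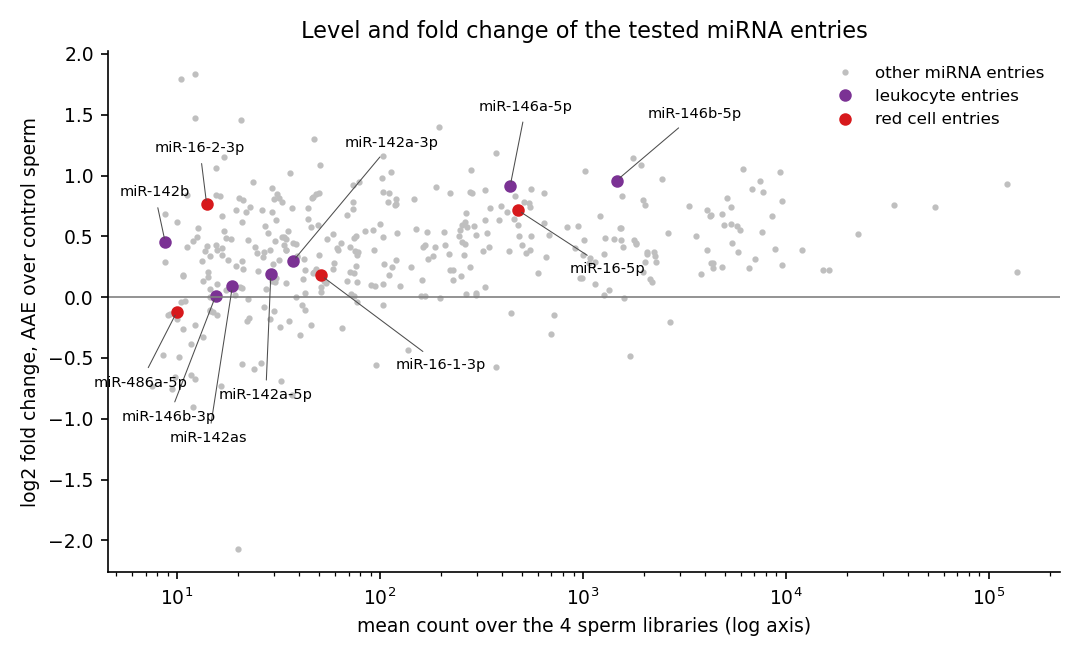
Mean count over the 4 sperm libraries (log axis) against the log2 fold change, AAE over control, for each of the 375 tested miRNA entries, with members coloured by group. Most points lie above 0, for 10 of the 11 members and for 321 of the 375 entries.

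Summed, the members took 0.0219% and 0.0279% of all counts in AAE sperm, against 0.0131% and 0.0108% in control sperm, a ratio of mean shares of 2.08. Within the miRNA counts they took 0.409% and 0.371% in AAE sperm, against 0.310% and 0.324% in control sperm, a ratio of 1.23. The leukocyte group alone took 0.334% and 0.286% in AAE sperm, against 0.232% and 0.258% in control sperm, a ratio of 1.26 with no overlap. Without the miR-146 entries, a choice made after the values were seen, the leukocyte ratio was 0.897 and the groups overlapped. The red cell group took 0.0752% and 0.0849% in AAE sperm, against 0.0784% and 0.0659% in control sperm, a ratio of 1.11 with overlap. Its ratio was 0.639 for miR-486a-5p alone, with miR-16 left out.

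**Figure D4:**
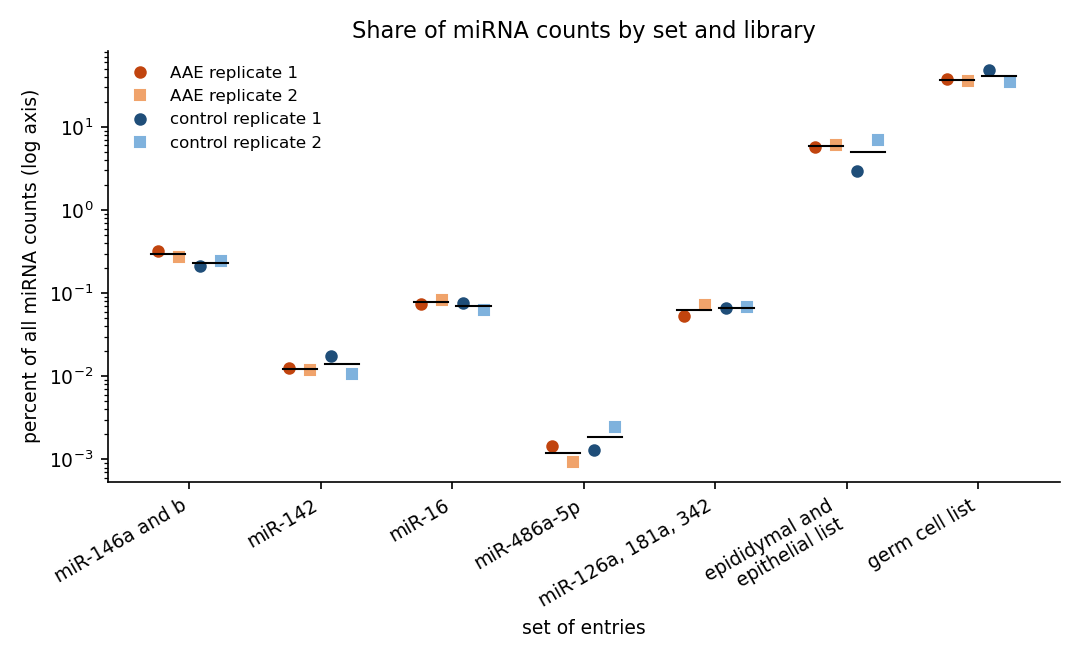
Percent of all miRNA counts (log axis) taken by each miRNA's entries and by the comparison lists, 1 point for each library and lines for the group means, with AAE left of control. The miR-146 values of both AAE libraries (0.321% and 0.272%) lie above both controls (0.213% and 0.247%), and the groups overlap in the other sets.

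Ratios inside a library do not depend on scaling between libraries. miR-146b-5p had 49.7 and 41.6 times the counts of miR-142a-3p in AAE sperm, against 22.1 and 52.2 times in control sperm. miR-146a-5p had 11.2 and 16.4 times the counts of miR-142a-3p in AAE sperm, against 7.48 and 12.3 times in control sperm. In both ratios the groups overlapped, and the lowest value was that of control replicate 1. miR-23a-3p is used as a stable partner in tests for haemolysis. The ratio of miR-16-5p to miR-23a-3p was 1.5 and 1.45 in AAE sperm, against 2.21 and 0.810 in control sperm. Both AAE values lay between the controls. miR-23a-3p itself took 0.0438% and 0.0515% of the miRNA counts in AAE sperm, against 0.0300% and 0.0681% in control sperm. It was thus not stable between the controls, and that spread enters the ratio.

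The germ cell miRNA miR-34c-5p had 1400 and 1880 times the counts of miR-142a-3p in AAE sperm, against 1120 and 1450 times in control sperm. The groups overlapped. The size of this ratio depends on the germ cell entry taken, and miR-34c-5p is among the most abundant of its list. Other entries of that list, miR-449a-3p, miR-883a-5p and miR-883b-5p, had fewer counts than miR-142a-3p in every library.

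As shares of miRNA counts, the groups overlapped in each list set beside the members. The AAE to control ratios of mean shares were 0.937 for other blood and vessel miRNAs, 1.06 for miR-16 relatives and 0.972 for miR-23a-3p. They were 1.18 for the epididymal and epithelial list and 0.886 for the germ cell list, against 1.23 for the members. On the scale over all entries, the lists had directions similar to those of the members. Of the other blood and vessel miRNAs, all 3 tested were above 0 and none was called; miR-342-3p, the most abundant, had 276 and 477 counts in AAE sperm, against 242 and 188 in control sperm (log2 fold change 0.51), and miR-126a-3p, an endothelial miRNA, had a log2 fold change of 0.09. The list of miR-16 relatives held 5 entries: miR-15a-5p, miR-15b-5p and miR-195a-5p, which share its seed, miR-15b-3p, an opposite arm that does not, and miR-15a, whose arm is not named. All 5 were above 0, with a median log2 fold change of 0.70. Of the 5, 1 was higher in AAE sperm at an unadjusted p under 0.05, against 10.4% of the 375 tested miRNA entries. This was miR-15a-5p (unadjusted p = 0.0379, adjusted p = 0.945 by edgeR). The most abundant, miR-15b-5p, had 537 and 802 counts in AAE sperm, against 491 and 363 in control sperm (log2 fold change 0.39). The ratio of miR-16-5p to miR-15b-5p was 1.01 and 0.897 in AAE sperm, against 0.831 and 0.683 in control sperm, higher in both AAE libraries. This did not hold against miR-15a, with 555 and 819 counts in AAE sperm and 443 and 232 in control sperm. miR-16-5p had fewer counts than miR-15a in both AAE libraries and more in control replicate 2.

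The 15 epididymal and epithelial entries were all above 0, with a median log2 fold change of 0.82 and 4 at an unadjusted p under 0.05, against the 2.59% of all entries and 10.4% of tested miRNA entries. They took 5.74% and 5.99% of the miRNA counts in AAE sperm, against 2.95% and 6.96% in control sperm. Of the 31 germ cell entries 27 were above 0, against 321 of the 375 tested miRNA entries. The germ cell median was 0.35, and no germ cell entry had an unadjusted p under 0.05 by edgeR. Within the lists, entries such as miR-449a and miR-449a-5p had similar counts in every library, and whether they share reads was not tested. No entry of these lists passed the adjusted test. The part of epithelial RNA in the member values was not tested.

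Among 206 other miRNA entries with a mean count of 50 or more, those whose log2 CPM, centred on its mean over the 4 libraries, lay closest to the summed leukocyte members were miR-3535, miR-141-3p and miR-17-5p. Their root mean square distances were 0.0763, 0.0933 and 0.105, against a median of 0.335 over the candidates. Closest to the summed red cell members were miR-465a-5p, miR-1839-5p and miR-34c-3p, at 0.0304, 0.0475 and 0.0553, against a median of 0.262. Of these entries, miR-141-3p belongs to the epididymal and epithelial list, and miR-465a-5p and miR-34c-3p to the germ cell list. The miR-146 entries made up most of the leukocyte sum, and the miR-16 entries most of the red cell sum, in every library. These likenesses rest on 4 libraries and carry no test. All of these entries come from the same libraries, in which miRNAs as a class took a larger share of the counts in AAE sperm.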

How the data were processed

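The authors deposited raw read counts per RNA sequence entry for each sperm library. FastQC, Bowtie, Bowtie2, edgeR and mm9 appear in the submitters' processing notes without role or order, and the treatment of reads matching several entries is not given in the sources used here. The deposited table pairs entries with names and gives log2 fold changes and p-values computed by the authors, used only where named. Its 4 per-sample columns, and 18 in the embryo table, were not used, nor were embryo files.

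The test was edgeR 4.0.16 under R 4.3.3 (TMM, filterByExpr, quasi-likelihood test, Benjamini-Hochberg adjustment at 0.05 over all 21008 entries that passed), two-sided, with DESeq2 1.42.0 as an alternative. Standard errors were derived from the fold change and its F statistic. Tables and intervals were made with Python 3.11.15, pandas 2.3.3, NumPy 2.4.6 and SciPy 1.17.1, and figures with matplotlib 3.10.9. The rule for named entries gave members with a mean count of 10 or more in every library and each list by its counts and most abundant entry. miR-142b, mmu-miR-150, miR-126a-3p, the other miR-16 relatives and the miR-34c-5p ratio were added after their values were seen. Members, lists and tests were chosen with earlier results of these data known. The fit was checked on simulated data with known changes, drawn with a common dispersion and no shift of miRNAs as a class. That check therefore does not cover such a shift. Alternatives were other scaling, filters and tools, a replicate block and leaving out each library.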

Additional observations from a re-analysis of the deposited data

How the results depend on the processing

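No member passed an adjusted p of 0.05 under any setting run. The biological coefficient of variation was 0.242 with 2 libraries per group, and entries under about 50 counts carry wide counting error. Of 131 member fold changes under other settings, 113 kept their direction and 18 reversed, 12 of them when a library was left out; the causes were not tested. The number of all entries called was 0 as reported, 1 with library totals (which shifted the median of all entries to 0.36), 16 with no filter, and 0 to 411 when each library was left out: 411 without AAE replicate 1 (31 higher, 380 lower), 139 without AAE replicate 2 (133 higher, 6 lower), 7 without control replicate 1 and 0 without control replicate 2. With 1 library left in a group, that library is assumed to vary like the other group. A replicate block called 0 entries and gave miR-146b-5p 0.86, miR-142a-3p 0.40 and miR-16-5p 0.72. Same-numbered libraries correlated at 0.108 in their deviations, but with only 2 pairs the numbers are not taken to pair the samples.

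Reversed log2 fold changes with miRNAs scaled to each other were miR-142a-5p -0.024, miR-142as -0.058, miR-146b-3p -0.19 and miR-16-1-3p -0.019. With a mean count of 10 or more, miR-146b-3p was -0.0076, and with library totals miR-486a-5p was 0.13. Leaving out each library gave -0.21 to 1.02 for miR-142a-3p, -0.23 to 0.56 for miR-142a-5p, -0.47 to 1.00 for miR-142as, -0.28 to 1.97 for miR-142b, -0.59 to 0.58 for miR-146b-3p, -0.15 to 0.51 for miR-16-1-3p and -0.86 to 0.55 for miR-486a-5p. The summed share of all counts was 0.0249% in AAE sperm and 0.0120% in control sperm. With miRNA counts as denominator it was 0.390% and 0.317%, and without miR-146b-5p 0.0106% and 0.00535%. With all counts as denominator the AAE to control ratio was 2.13 for leukocyte and 1.89 for red cell members, against 1.26 and 1.11. The ratios below 1 were 0.897 without miR-146 (chosen after seeing the data) and 0.639 without miR-16.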

Other observations

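The name rule left out a pair of entries whose names lie close to those of members. The entry mmu-miR-146, which has no arm or letter, had 714 and 1042 counts in AAE sperm, against 498 and 316 in control sperm. Its log2 fold change was 0.86 (SE 0.377), with an unadjusted p of 0.0474 and an adjusted p of 0.945 by edgeR. It held 1.49 and 1.42 times the counts of miR-146a-5p in AAE sperm, against 1.51 and 1.51 times in control sperm. The near-constant ratio is a description, and whether the 2 entries share reads was not tested. The entry named miRNAR16-1 had 3728 and 5151 counts in AAE sperm, against 2914 and 1586 in control sperm, with a log2 fold change of 0.75 (SE 0.538; adjusted p = 0.945 by edgeR). What this entry contains is not given in the sources used here.

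In the authors' deposited table, the log2 fold change was 0.93 for miR-146b-5p, with a p-value of 0.00846. For miR-146a-5p the authors' deposited table gave 0.88, with a p-value of 0.0139. For miR-16-5p the authors' deposited table gave 0.68, with a p-value of 0.0559. For mmu-miR-150, not tested here, the authors' deposited table gave 0.77, with a p-value of 0.327. The deposited p-values of miR-146b-5p and miR-146a-5p were smaller than the unadjusted p-values of the edgeR fit made here, 0.0822 and 0.0251.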
